A study of Mus musculus with 6 samples.

Results

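Peroxisome assembly and metabolism genes were followed in whole lungs of mouse fetuses in which Scap had been deleted. The set holds 32 genes out of 18193 with a single-symbol probe set: 13 peroxins, which build the organelle, and 19 transporters, enzymes and membrane proteins, with the acyl-CoA oxidases left out. Members were taken by name, and each gene was read from its brightest probe set by mean log2 over all arrays. Lungs called Scap_ko had Scap deleted in respiratory epithelial cells, and the others were titled Scap_control, although their labels repeat the deletion before the word control; both were taken at E18.5 and had a mixed FVB/N and B6 background, with 3 samples per group. The driver of the deletion and the alleles that the controls carry are not stated in the labels. Nor do these name a separate animal for each sample, and every p-value therefore rests on sample-to-sample spread that could be technical.

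Peroxisomes are small organelles that shorten very long and branched fatty acids, make the early intermediates of ether lipids and break down hydrogen peroxide. Their membrane proteins are placed by Pex3, Pex16 and Pex19, and their enzymes are carried in from the cytosol by the receptors Pex5 and Pex7. In lung, catalase-rich peroxisomes are known from alveolar type II and club cells, and ether lipids are part of surfactant. Scap escorts the SREBP factors that switch on sterol and fatty acid synthesis, so the comparison asks whether peroxisomal transcripts differ when that route is cut in the epithelium.

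The arrays had median signals of 498.5 to 513 in Scap_ko lungs and 490.9 to 530.5 in control lungs, in linear array units, and precision is limited by having few arrays. Scap itself read 1846.8, 3285.8 and 2702 in Scap_ko lungs, against 7264.1, 4194.6 and 3079.7 in control lungs. The groups overlapped (log2 difference -0.84, exact two-sided permutation p = 0.2, where 3 against 3 arrays allow no p below 0.1). The limma p was 0.0371 unadjusted and 0.808 adjusted, with a 95% interval from -1.61 to -0.066. Each Scap_ko sample read below the control sample of its number. Whether the probe set lies in the deleted stretch was not tested. Marker genes of lung were bright in all samples: all 7 alveolar type II genes, all 6 alveolar type I genes and all 5 epithelial genes with a probe set lay above the brightness limit of 497.8, the median of all probe sets, while 0 of 3 brown fat genes did. Of 5 heart and skeletal muscle genes 4 also lay above it, with sums of 26317.4 to 38891.4 in Scap_ko lungs and 26905.6 to 31174 in control lungs; these 4 had positive differences, none at an unadjusted p of 0.05. The arrays numbered 3 of both groups stood apart from the other 4 along the first principal component, which held 36.6% of the variance. Along the second, which held 21.1%, the groups lay apart, at 8.1 to 10.5 for Scap_ko and -11.7 to -8.4 for control arrays. Means are given ± SD over the 3 arrays of a group, in signal units. Log2 differences are Scap_ko minus control, with limma's standard error (SE) or 95% interval, and each adjusted p comes from limma with Benjamini-Hochberg adjustment over 10972 genes. In bulk samples fewer cells of a type and less RNA per cell cannot be told apart.

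The peroxisomal genes read much alike in Scap_ko and control lungs. Of the 32 members, 31 lay above the brightness limit and were tested, and Ehhadh did not. By limma 0 of 31 passed an adjusted p of 0.05, against 1 of 10972 genes (0.00911%), and the smallest adjusted p among the members was 0.849. At an unadjusted p of 0.05 the count was 0 higher and 0 lower, where 2.88% of all genes were higher and 3.04% lower, 5.92% together. Differences below 0 were found in 17 of 31 members, against 48.3% of all genes. The median member stood at 98.7% of control (log2 difference -0.02), and the median gene at 100.4%. The differences ran from -0.30 for Hacl1 to 0.24 for Abcd4, and the median size without sign was 0.12, against 0.10 for all genes.

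The intervals bound differences in the signal of whole lung. They do not bound a change within the epithelial cells in which Scap was deleted, since those cells were not measured apart. All 31 intervals lay inside ±1 on the log2 scale, that is, inside a 2-fold change, and 19 lay inside ±0.5. The lowest bound was -0.70, for Cat, and the highest 0.66, for Pex14. These intervals are not adjusted for the number of genes, and 97.2% of all genes also had an interval inside ±1.

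**Figure D1:**
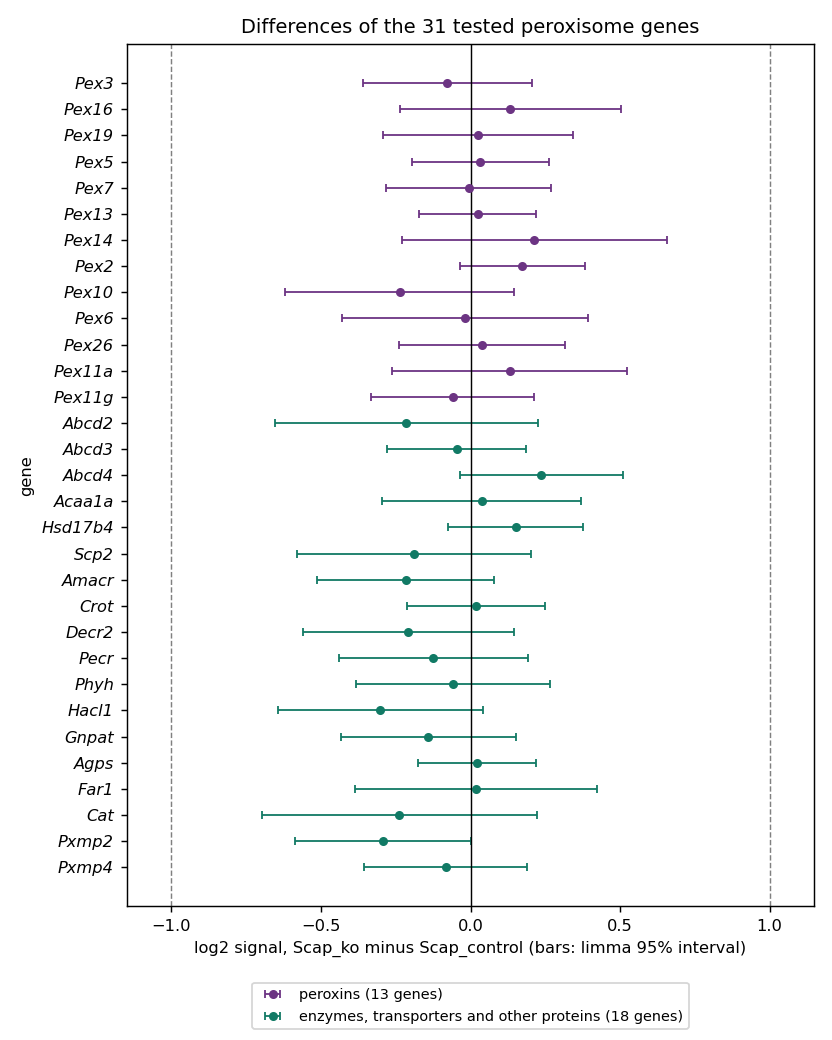
Log2 difference of signal, Scap_ko minus control, for each of the 31 tested peroxisome genes; points are limma estimates, bars 95% intervals, dashed lines mark ±1. All 31 intervals include 0 and stay inside the dashed lines, with estimates from -0.30 for Hacl1 to 0.24 for Abcd4.

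The groups did not overlap in 3 of 31 members, 2 of them higher (Pex2 and Abcd4; 6.11% of all genes) and 1 lower (Pxmp2; 5.72%), together near the 11.8% of all genes. In all 3 pairs of samples of the same number the difference had the same sign in 8 of 31 members, against 30.9% of all genes. Of these 8, Pex2, Pex11a and Abcd4 were higher and Pex3, Pex10, Amacr, Hacl1 and Pxmp2 lower. With the replicate number as a block, 2 members, Abcd4 and Pxmp2, had an unadjusted p under 0.05, where 8.70% of all genes did, and the smallest adjusted p was 0.554.

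The membrane assembly factors Pex3, Pex16 and Pex19, which insert membrane proteins and so start the organelle, were close to control. Pex19, the cytosolic chaperone for these proteins, read 3280, 2995.1 and 3368.1 in Scap_ko lungs, against 2633.9, 3276.2 and 3645.8 in control lungs. The control samples spanned all Scap_ko samples (log2 difference 0.02, SE 0.14), and the other 2 probe sets of Pex19 above the limit read 102.2% and 107.3% of control. Pex3, its docking partner in the membrane, averaged 2294 ± 265 in Scap_ko lungs and 2416 ± 215 in control lungs. Pex16 averaged 1109 ± 169 in Scap_ko lungs and 1013 ± 160 in control lungs, with a 95% interval of the difference from -0.24 to 0.50.

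The receptors that ferry enzymes into the matrix showed the smallest spread of differences among the roles with more than 1 tested member. Pex7, which binds enzymes with an amino-terminal signal, read 2748.9, 2469.4 and 2964.8 in Scap_ko lungs, against 2596.4, 2547.4 and 3086 in control lungs. The replicate numbered 3 was the highest in both groups, and the means lay within the spread (log2 difference -0.01, 95% interval -0.28 to 0.27); the sign turned to 0.0078 when arrays were centred on their medians. Pex5, which binds the commoner carboxy-terminal signal, averaged 1517 ± 84.2 in Scap_ko lungs and 1484 ± 101 in control lungs.

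Of the docking pair in the membrane, Pex13 read alike in both groups. Its signals were 3987.6, 4042.2 and 3925.4 in Scap_ko lungs, against 3882.4, 3838.4 and 4043.8 in control lungs (95% interval -0.17 to 0.22). Pex14, its partner, read 1564.6, 1688.7 and 1662.1 in Scap_ko lungs, against 1072.4, 1407.8 and 1865.2 in control lungs. The Scap_ko samples lay close together inside a wide control range (log2 difference 0.21, SE 0.19, adjusted p = 0.923). Without control replicate 3 the difference of Pex14 was 0.41, with a limma adjusted p of 0.716.

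The RING ligases, which tag Pex5 with ubiquitin so that it can leave the membrane, had differences of opposite sign, neither past the test. Pex2 read 3937.5, 3507.8 and 3756.6 in Scap_ko lungs, against 3275.7, 3339.1 and 3314.8 in control lungs. Every Scap_ko sample lay above every control sample (log2 difference 0.17, SE 0.09, adjusted p = 0.867), and the other Pex2 probe set read 104.3% of control. Pex10 averaged 1158 ± 60.4 in Scap_ko lungs and 1388 ± 328 in control lungs, its control spread set by a reading of 1762.1 in replicate 3 (log2 difference -0.24, SE 0.16).

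Pex6, an ATPase that pulls the tagged receptor out of the membrane, read 2923.3, 4322.1 and 4721.8 in Scap_ko lungs, against 3972.4, 3982 and 3923.3 in control lungs. The control samples agreed closely while the Scap_ko samples lay on both sides of them, and of the 4 other Pex6 probe sets 2 were above and 2 below 100% of control, from 89.1% to 101.4%. Pex26, which anchors Pex6 in the membrane, averaged 3476 ± 213 in Scap_ko lungs and 3398 ± 424 in control lungs. Of the factors that drive division of the organelle, Pex11a read 2697.9, 2324.2 and 3203.6 in Scap_ko lungs, against 2170.1, 2319.9 and 3036.8 in control lungs. Each Scap_ko sample was above the control of its number, by 0.0027 to 0.31 log2, and the groups overlapped (log2 difference 0.13, SE 0.17). Pex11g averaged 874 ± 112 in Scap_ko lungs and 907 ± 49.6 in control lungs.

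Together 8 of the 13 peroxins had a positive difference, with a median of 0.02. Of the 18 tested transporters, enzymes and membrane proteins, 12 had a negative one, with a median of -0.10. Over all 10972 genes, 5676 differences were positive and 5296 negative. The peroxin count was 9 with arrays centred on their medians. With 1 array left out it lay between 5, without control replicate 2, and 10, without Scap_ko replicate 1. The other count was 12 under each scaling and 15 without control replicate 2. Without control replicate 2 both medians were negative, at -0.015 for the peroxins and -0.12 for the others, where 53.1% of all genes were below 0. The contrast between assembly and metabolic genes is a description and was given no test.

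**Figure D2:**
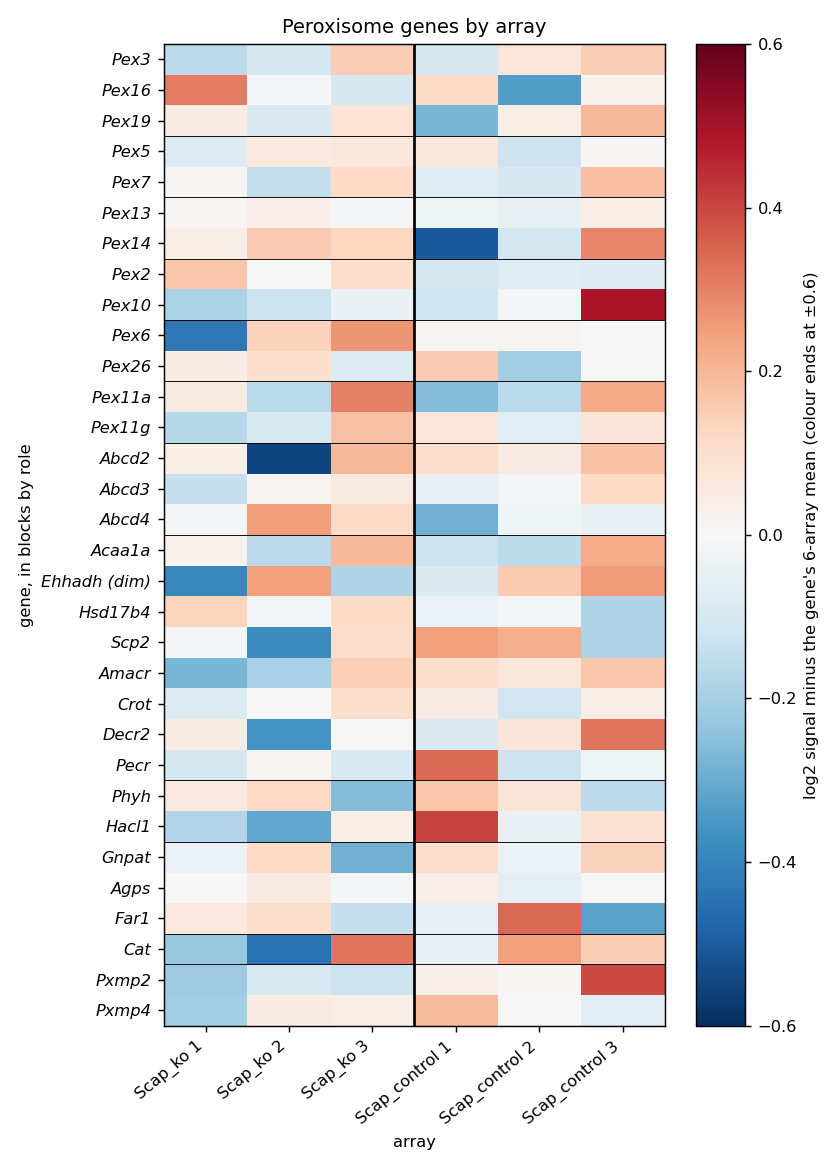
Log2 signal of each of the 32 peroxisome genes on each array minus that gene's mean over all 6 arrays, in blocks by role; red is above and blue below the gene's mean, and Ehhadh is marked dim because it lay under the brightness limit. No block is one colour across all Scap_ko arrays and the other across all control arrays, and the control array numbered 3 was the highest of the 6 in 12 of the 31 tested genes.

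The ABCD transporters share a fold and differ in place and cargo. Abcd3, which brings branched-chain and other acyl-CoAs into the peroxisome, read 12693.7, 14121.9 and 14532.8 in Scap_ko lungs, against 13556.4, 13931.3 and 15182.9 in control lungs. The samples interleaved (log2 difference -0.05, 95% interval -0.28 to 0.19). Abcd4, which despite its family name is known as a vitamin B12 transporter of the lysosome, read 735, 882.3 and 802.8 in Scap_ko lungs, against 607.6, 728.3 and 719.5 in control lungs. Every Scap_ko sample lay above every control sample by a small margin (log2 difference 0.24, SE 0.12, limma adjusted p = 0.865; 0.554 with the replicate block).

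Abcd2, a transporter of very long-chain acyl-CoAs, depended on the probe set. By its brightest probe set it averaged 868 ± 219 in Scap_ko lungs and 985 ± 43.1 in control lungs, the low mean resting on 623.2 in Scap_ko replicate 2 (log2 difference -0.21, SE 0.19; 0.0076 without that array). The second probe set read 787.4, 683.7 and 872.7 in Scap_ko lungs, against 1026, 892.8 and 1293.2 in control lungs, with no overlap and 73.5% of control. The third above the limit read 105.5% of control.

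Beta-oxidation genes did not move together, with 3 of 7 tested members above 0 and a median at 91.7% of control. Hsd17b4, the bifunctional enzyme that handles the middle steps for branched and very long chains, averaged 5359 ± 285 in Scap_ko lungs and 4830 ± 305 in control lungs (log2 difference 0.15, SE 0.10), and its other probe set read 112.2%. Ehhadh, the bifunctional enzyme for straight and dicarboxylic chains, was dim and not tested, at 234.2, 363.2 and 270.2 in Scap_ko lungs, against 288.8, 341.1 and 365.3 in control lungs. Acaa1a, the thiolase of the last step, averaged 1868 ± 228 in Scap_ko lungs and 1824 ± 276 in control lungs; its probes may also read the near-identical Acaa1b.

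The enzymes that feed or trim this pathway read below or near control, and none passed the adjusted threshold. Amacr, the racemase that readies branched chains, read 687.9, 725.3 and 919.3 in Scap_ko lungs, against 887.7, 871.4 and 929.9 in control lungs. Samples 1 and 2 of Scap_ko were below all controls and sample 3 was among them (log2 difference -0.22, SE 0.13, adjusted p = 0.889). Decr2 and Pecr, reductases for unsaturated chains, stood at 86.5% and 91.7% of control, with SE 0.15 and 0.13. Crot, which passes shortened chains on as carnitine esters, stood at 101.2%.

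Scp2, which yields a thiolase for branched chains and a sterol carrier protein, read 18884, 14657.4 and 20473.5 in Scap_ko lungs, against 22594.2, 22110.2 and 16814.2 in control lungs. Scap_ko sample 2 was the lowest of all, and the groups overlapped (log2 difference -0.19, SE 0.17, adjusted p = 0.923). The other 2 Scp2 probe sets above the limit read 84.7% and 79.5% of control, both with overlap, and the first of them was highest on control array 3. Cat, catalase, which splits hydrogen peroxide, read 12972.9, 11146.6 and 18976.4 in Scap_ko lungs, against 14804.2, 18041.9 and 16852.4 in control lungs. Samples 1 and 2 of Scap_ko were below every control and sample 3 above every control (log2 difference -0.24, SE 0.20, adjusted p = 0.917). The other Cat probe set read 87.9% of control, and there Scap_ko sample 3, at 16768.2, lay below control sample 3, at 17751.7.

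In Amacr, Hacl1 and Cat, Scap_ko sample 3 was the highest of its group. Without that array the log2 differences were -0.34, -0.39 and -0.46, which restates this order and supports nothing further. These 3 of 31 members were then at an unadjusted limma p of 0.05 or below, where 6.98% of all genes were, and the smallest adjusted p was 0.581. Without both arrays numbered 3, Pex14, Scp2, Amacr and Cat were at an unadjusted p under 0.05, 4 of 31 against 7.59% of all genes, and 13 of 31 members had no overlap, against 39.0% of all genes. The smallest adjusted p of a member was then 0.604.

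**Figure D3:**
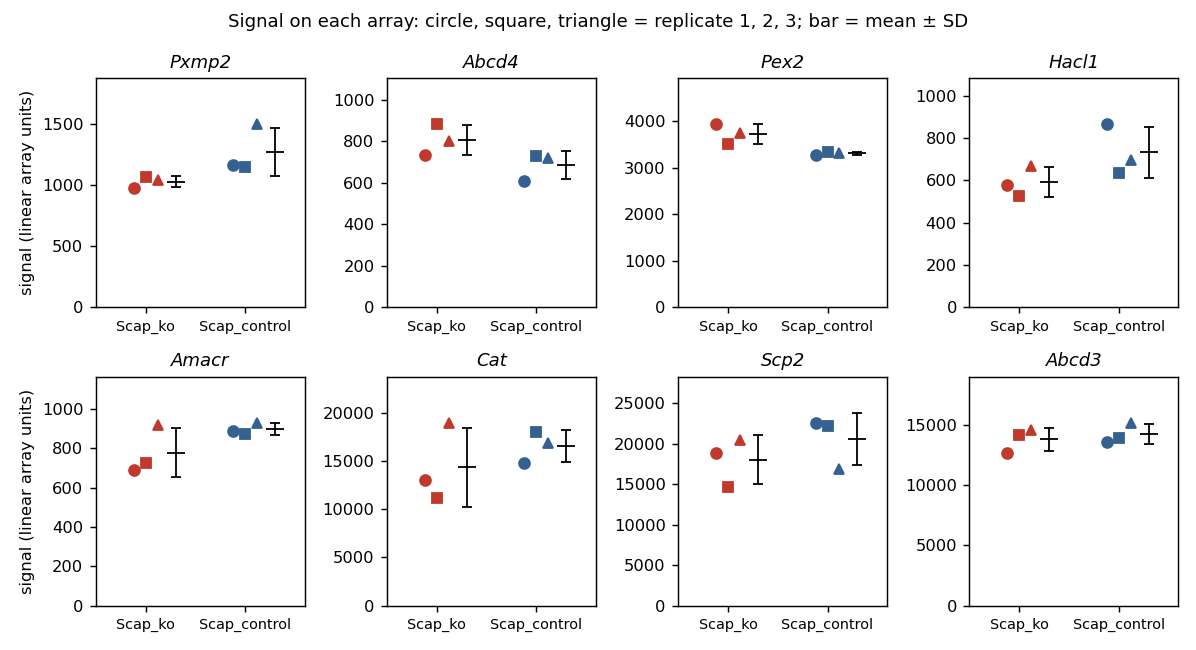
Linear signal of 8 peroxisome genes on each array, Scap_ko on the left and control on the right of each panel; symbols give the replicate number and the bar the mean ± SD of 3 arrays. Pxmp2 lies below and Abcd4 and Pex2 above every control sample, while in Cat the Scap_ko samples run from 11146.6 to 18976.4 and enclose the controls.

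Marker genes of the epithelium also differed between arrays. The summed signal of 7 alveolar type II genes was 263154, 269489 and 308760 in Scap_ko lungs, against 346892, 300631 and 365334 in control lungs, and 5 of 7 had a negative difference, 4 of them at an unadjusted p of 0.05, against 48.3% and 3.04% of all genes. The sum over 4 club and secretory genes was 147872, 126470 and 198390 in Scap_ko lungs, against 169281, 150894 and 235992 in control lungs. The type II and club sums were highest on array 3 within each group, as Cat was in Scap_ko but not in control lungs. No defining marker of either type had a signal at or near 0. Not every list was lower: the ciliated sum over 4 genes was 28061.2 to 30431 in Scap_ko lungs, against 24125.7 to 25997.1 in control lungs. Of its 3 tested genes, 2 had a positive and 1 a negative difference. The sums over 6 type I, 5 general epithelial and 5 endothelial genes overlapped between the groups. Of the 5 endothelial genes, 4 had a negative difference. The leukocyte and macrophage sum over 5 genes, of which Lyz2 is also made by type II cells, ran from 41819.1 to 58622.5 in Scap_ko lungs, against 62734.1 to 77189.3 in control lungs. That gap came from Lyz2: without it the sum of the other 4 was 12867.1, 12098.2 and 14680.9 in Scap_ko lungs, against 13141.2, 12544.7 and 14387.7 in control lungs, and 3 of the 5 genes had a positive difference.

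Liver is rich in peroxisomes, and its marker genes differed between arrays. All 4 liver genes measured (Alb, Afp, Apoa1 and Ttr) were under the brightness limit as means over the arrays, and their summed signal was 502.7, 354.9 and 369.4 in Scap_ko lungs, against 3034.6, 9385.2 and 578.8 in control lungs. The high sums were on control arrays 1 and 2, where the brightest Scp2 probe set also read highest, while its second probe set read highest on control array 3. Cat read highest on Scap_ko array 3 by its brightest probe set and on control array 3 by the other. The part of type II, club, leukocyte or liver RNA in the values of Cat and Scp2 was not tested. Without control replicate 2, the array with most liver marker signal, 23 of 31 members were below 0 and the median log2 difference was -0.06, where 53.1% of all genes were below 0.

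**Figure D4:**
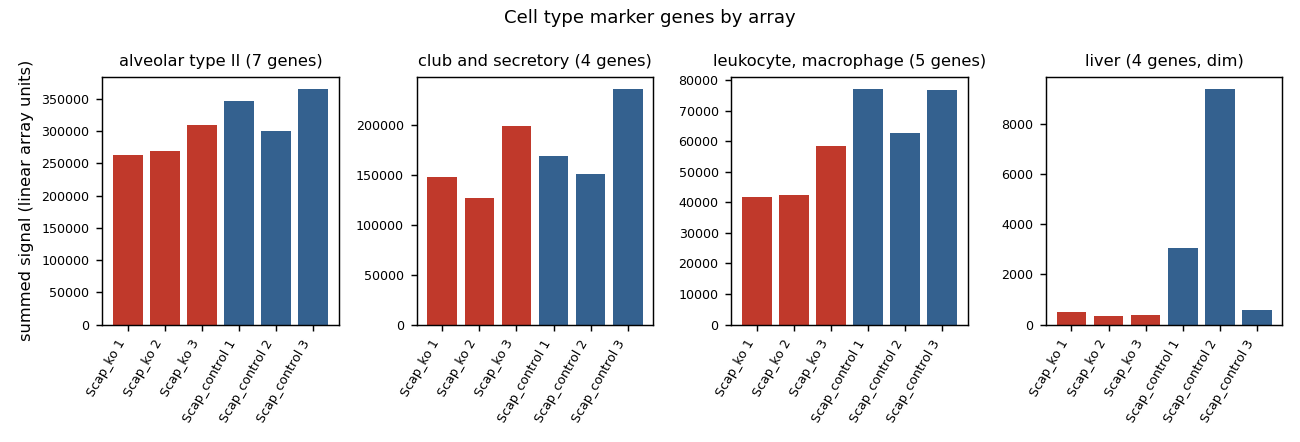
Summed linear signal of marker genes on each array, Scap_ko in red on the left and control in blue on the right, with a separate axis from 0 for each list. Type II sums are highest on array 3 of each group, the leukocyte sum is mostly Lyz2, and the liver sum stands out on control arrays 1 and 2, at 3034.6 and 9385.2.

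The promoters of Cat and Scp2 are shown because these genes ranked the Scap_ko arrays in the same order. That order was also found in Pex19, Pex7, Pex11a, Abcd2, Acaa1a and Hacl1, and on control arrays Cat and Scp2 differed in order. The promoter of Ehhadh is shown because it alone among the members held the SREBP element searched for. RefSeq starts on GRCm38.p6 were found for 25 of 32 members (29 windows), and the 250 bases before each start are printed 5′ to 3′ along the gene, with matches in capitals: AGGTCA, a single nuclear receptor element, in Cat and Scp2, and TCACNCCAC, the sterol regulatory element, on the opposite strand in Ehhadh.
Cat, chr2:103485154-103485403, minus strand: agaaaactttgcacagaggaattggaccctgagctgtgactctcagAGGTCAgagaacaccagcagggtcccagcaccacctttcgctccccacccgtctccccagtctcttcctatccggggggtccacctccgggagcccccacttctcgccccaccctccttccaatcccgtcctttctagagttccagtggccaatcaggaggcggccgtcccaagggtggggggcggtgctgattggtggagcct
Scp2, chr4:108118548-108118797, minus strand, a window inside the RefSeq gene, which spans 108043830 to 108144971: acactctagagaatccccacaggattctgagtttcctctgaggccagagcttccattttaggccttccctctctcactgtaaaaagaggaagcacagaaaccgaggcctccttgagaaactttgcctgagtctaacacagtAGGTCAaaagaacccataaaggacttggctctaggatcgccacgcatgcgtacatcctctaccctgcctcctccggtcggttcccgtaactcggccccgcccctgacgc
Ehhadh, chr16:21787835-21788084, minus strand: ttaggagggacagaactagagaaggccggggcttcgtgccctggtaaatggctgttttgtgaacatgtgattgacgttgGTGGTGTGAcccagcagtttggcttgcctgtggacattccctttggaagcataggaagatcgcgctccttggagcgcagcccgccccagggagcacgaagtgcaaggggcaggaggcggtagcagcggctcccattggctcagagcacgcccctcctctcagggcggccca
Both strands were searched. TCACNCCAC was found in 1 of 25 members, against 1.22% of 27025 genes, and AGGTCA in 3 of 25 (Cat, Scp2 and Pex11g), against 15.8% of genes. An exact form of the PPAR element, 2 copies of AGGTCA set 1 base apart, was in 0 of 25 members and 0.0407% of genes. It is so rare in these windows that its absence from 25 members says nothing about PPAR sites. The E-box CACGTG, which SREBP factors can also bind, was in 1 of 25 (Gnpat), against 6.86% of genes. CCAAT, a promoter box bound by NF-Y, was in 12 of 25, against 37.5% of genes, and the GC box GGGCGG, bound by Sp1, in 19 of 25, against 35.4% of genes. These matches describe letters in a short window and show no binding.

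Alpha-oxidation, which removes a single carbon from branched chains such as phytanic acid, was read by 2 genes. Phyh, the hydroxylase of its early step, read 4526.7, 4718.1 and 3625.1 in Scap_ko lungs, against 4883.3, 4580.4 and 3901.9 in control lungs. Replicate 3 was the lowest in both groups (log2 difference -0.06, SE 0.14). Hacl1, the lyase that then cuts the chain, read 577.6, 526.8 and 669.1 in Scap_ko lungs, against 864.6, 635.8 and 693.2 in control lungs. It had the lowest difference of the set, 81.1% of control, with samples that overlapped (log2 difference -0.30, 95% interval -0.64 to 0.04, adjusted p = 0.859).

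Ether lipid genes read near control at each of the peroxisomal steps. Far1, which supplies the fatty alcohol, read 4878.6, 5044.4 and 4257.1 in Scap_ko lungs, against 4524.5, 5956.4 and 3747.5 in control lungs. The control samples enclosed the Scap_ko samples (log2 difference 0.02, SE 0.17), and its 4 other probe sets read 90.7% to 105.8% of control. Gnpat, which makes the acyl-dihydroxyacetone phosphate start, averaged 3615 ± 495 in Scap_ko lungs and 3966 ± 248 in control lungs (log2 difference -0.14, SE 0.12). Agps, which swaps the acyl for an alkyl chain, averaged 2668 ± 59.1 in Scap_ko lungs and 2629 ± 78.0 in control lungs (95% interval -0.18 to 0.22).

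Pxmp2, a channel of the peroxisomal membrane for small metabolites, came nearest to the threshold. It read 976.8, 1067 and 1037.9 in Scap_ko lungs, against 1161.5, 1145.2 and 1496.1 in control lungs. Every Scap_ko sample lay below every control sample, and the control spread came mainly from replicate 3 (log2 difference -0.29, SE 0.13, adjusted p = 0.849; 0.556 with the replicate block). Its unadjusted limma p was 0.0511, and 0.0424 with the block. Pxmp4, another membrane protein, read 1910.9, 2281.9 and 2261 in Scap_ko lungs, against 2519.4, 2210 and 2105.9 in control lungs. Its probe sets disagreed: this one stood at 94.4% of control with overlap, while the other read 1600.1, 1368.4 and 1387 in Scap_ko lungs, against 1126.3, 1332.7 and 1225.5 in control lungs, 118.2% of control with none.

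Beyond the single genes, 53 of 66 probe sets of the members lay above the limit, and 13 members had more than 1 such probe set. Of the 22 probe sets besides the brightest, 6 turned the direction, in Pex6, Abcd2, Far1 and Pxmp4. Averaged over the members tested, log2 signal relative to each gene's 6-array mean was -0.05, -0.07 and 0.05 on the Scap_ko arrays and 0.00171, -0.02 and 0.08 on the control arrays, so that array 3 was the highest in each group.

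Other genes of the organelle, a list of 43 of which 37 had a probe set, were tested where bright enough. Of 23 tested, 0 passed an adjusted p of 0.05, and at an unadjusted p of 0.05, 0 were higher and 1 lower, against 5.92% of all genes, with a median at 100.3% of control. In 3 of 23 the groups did not overlap, near the 11.8% of all genes. The lower one was Idh1, which makes NADPH in the cytosol and the peroxisome, at 9059.2, 8389.3 and 9606.7 in Scap_ko lungs, against 11045.7, 10091.1 and 11387.2 in control lungs. Every Scap_ko sample lay below every control sample, and each pair differed by a similar amount (log2 difference -0.27, SE 0.10, adjusted p = 0.798). Dhrs4, a carbonyl reductase, and Crat, the carnitine acetyltransferase, also had no overlap, at 2602 ± 93.2 and 1795 ± 64.6 in Scap_ko lungs, against 2868 ± 2.03 and 2059 ± 173 in control lungs.

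PPAR receptors are the known switch of peroxisomal oxidation genes in rodent liver. Of 11 tested receptors, coactivators and PPARA targets, 0 passed an adjusted p of 0.05, and 0 were higher and 1 lower at an unadjusted p of 0.05, against 5.92% of all genes. That gene, Ppard, a widely expressed receptor of the family, read 1126.2, 1440.2 and 1346.8 in Scap_ko lungs, against 1428, 2042.2 and 1703 in control lungs. Only Scap_ko replicate 2 and control replicate 1 were out of order between the groups, and all 3 pairs were negative (log2 difference -0.39, SE 0.16, adjusted p = 0.808; 0.389 with the replicate block). Ppara, the receptor after which the targets are named, had a log2 difference of 0.14 with a 95% interval from -0.11 to 0.40.

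The acyl-CoA oxidases, which start peroxisomal beta-oxidation, lie outside the set. Acox2 averaged 1328 ± 48.9 in Scap_ko lungs and 574 ± 39.7 in control lungs and was the 1 gene of 10972 past the adjusted threshold (log2 difference 1.21, limma adjusted p = 0.0289; 0.118 with the replicate block), a call lost without any single array other than Scap_ko replicate 2, while Acoxl had a log2 difference of -2.20 (adjusted p = 0.271). Whether the members differ from these genes was not tested.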

How the data were processed

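RNA of whole E18.5 lung was biotin-labelled for MOE430 V2 arrays, per the labels. The authors deposited intensity values: linear signals of 45101 probe sets for 6 arrays. RMA is named in the submitters' processing notes, yet the deposited intensity values are linear, start at 0.2 and share a mean of 1500 after trimming 2% at either end. They were therefore taken as scaled to a trimmed mean, and the software that did so is unknown. Without detection calls, background could not be judged for dim probe sets.

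The log2 of the signal was taken with no pseudocount. Leaving out 64 control probe sets, 34945 had a single symbol in the platform annotation, 932 had several and 9160 had none. A gene, of 18193 in all, was read from the probe set with the highest mean log2. The 10972 genes whose mean reached the probe set median, 497.8 in signal units, were fitted by limma 3.58.1 (lmFit, then eBayes; R 4.3.3) with 4 residual degrees of freedom and no covariate, and p-values were adjusted over all of them by Benjamini-Hochberg. These steps were tested on simulated data. Promoter windows were searched with Python 3.11.15 and figures drawn with matplotlib 3.10.9.

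The members, the wider lists and the tests were chosen with earlier results of these data known. Every member is named. Signals of all arrays are given for members whose groups did not overlap and for the brightest member of each role, and genes of the wider peroxisome and PPAR lists are named at an unadjusted p of 0.05 at most; marker genes are given as sums. Hacl1, Amacr, Pex14, Hsd17b4, Ehhadh, Dhrs4, Crat, Ppara, Lyz2, the dim genes named, the second probe sets described and the liver genes were picked out after their values were seen. Titles number the samples 1 to 3 in both groups. Samples that share a number deviated together from their group means (r across genes 0.17, 0.20 and 0.43), although Scap_ko 1 with control 2 reached 0.18 and only number 3 clearly stood apart. The main fit therefore left the samples unpaired, and the numbers served to describe pairs and as a block in an alternative fit. The labels do not say what a number marks, and no scan date or other batch was tested. Alternatives covered scaling, pseudocount, dim-gene filter, probe set choice, variance model, the replicate block and left-out arrays.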

Additional observations from a re-analysis of the deposited data

How the results depend on the processing

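No member passed an adjusted p of 0.05 under any of the 15 alternatives, and the median log2 difference over the members stayed between -0.056 and 0.018. The count of members at an unadjusted p of 0.05, 0 as reported, was 1 with the mean of the probe sets above the limit, 2 with the replicate block, 4 without both arrays numbered 3 and 0 to 3 when 1 array was left out (3 without Scap_ko replicate 3, 2 without control replicate 2, namely Hacl1 and Pxmp2, and 1 without control replicate 3). The count with groups that did not overlap, 3 as reported, was 1 with the filter at the 75th percentile (19 members tested), 5 with the mean of the probe sets, 13 without both arrays numbered 3 and 4 to 9 when 1 array was left out (9 without Scap_ko replicate 3, 7 without control replicate 3, 5 without Scap_ko replicate 2, control replicate 1 or control replicate 2); leaving out arrays makes this easier by construction, as the share over all genes shows. The count below 0, 17 of 31 as reported, was 9 of 19 with the filter at the 75th percentile. It was 23 of 31 without control replicate 2, where 53.1% of all genes were below 0, and 15 to 19 without any other single array. The replicate block changed no other call among the members. For all genes, 1 passed an adjusted p of 0.05 as reported and 0 with the replicate block, no filter, the 75th percentile filter or an intensity trend, without both arrays numbered 3, or without any single array other than Scap_ko replicate 2, while the count at an unadjusted p of 0.05 was 650 as reported, 1062 with no filter and 415 with the 75th percentile filter.

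Of the 31 members tested, 14 kept their sign under every alternative in which they were tested and 17 did not; the cause was not tested. Pex7 stood at 0.0078 with arrays centred on their medians and 0.019 without both arrays numbered 3. Without both arrays numbered 3, Crot was -0.0085, Gnpat 0.0027 and Far1 -0.066. With the mean of the probe sets, Far1 was -0.018 and Pxmp4 0.079. With 1 array left out, log2 differences lay between -0.0022 and 0.22 for Pex16, -0.11 and 0.13 for Pex19, -0.022 and 0.079 for Pex5, -0.069 and 0.081 for Pex7, -0.16 and 0.19 for Pex6, -0.056 and 0.13 for Pex26, -0.16 and 0.010 for Pex11g, -0.37 and 0.0076 for Abcd2, -0.086 and 0.012 for Abcd3, -0.051 and 0.16 for Acaa1a, -0.034 and 0.064 for Crot, -0.22 and 0.014 for Pecr, -0.15 and 0.059 for Phyh, -0.0012 and 0.041 for Agps, and -0.14 and 0.20 for Far1. Signal over background limits Ehhadh, whose probe set lay under the brightness limit.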

Other observations

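Several peroxisomal enzymes that adult liver and kidney use most were dim in these lungs and were not tested. Of 14 dim genes of the wider peroxisome list, 10 had a lower and 4 a higher mean log2 signal in Scap_ko lungs. The 4 were Acaa1b, Slc27a2, Far2 and Ephx2, at 102.0% to 140.0% of control, and the groups did not overlap in 1, Uox. With dim genes kept, 52.4% of all genes were below 0, against 48.3% of the genes tested, so that dim genes as a whole were more often lower. Of 4 dim genes of the PPAR list 3 were lower and 1 higher, with no overlap in 1, Cyp4a14, where 11.9% of all genes had no overlap when dim genes were kept. Uox, the urate oxidase, read 324.4, 242.8 and 204.4 in Scap_ko lungs, against 329.7, 507.5 and 405.2 in control lungs, so that every Scap_ko array lay below every control array. Agxt, which turns glyoxylate into glycine, read 178, 24.8 and 48 in Scap_ko lungs, against 132.2, 214.9 and 139.4 in control lungs. Cyp4a14, a fatty acid hydroxylase of the endoplasmic reticulum known as a target of the receptor PPAR alpha in mouse liver, read 109.3, 43.6 and 41.3 in Scap_ko lungs, against 130.8, 169.7 and 187.7 in control lungs. Uox and Cyp4a14 thus had no overlap of the groups, while Agxt had, and all lay under the brightness limit of 497.8. Of the liver marker genes, Afp, the fetal liver protein alpha-fetoprotein, read 64, 45.1 and 40.1 in Scap_ko lungs, against 693.2, 6700.1 and 22.2 in control lungs. Alb, the serum albumin gene, read 256.8, 132.8 and 260.5 in Scap_ko lungs, against 1799.9, 1047.8 and 219.1 in control lungs. The high readings of both liver genes were on control arrays 1 and 2, whereas Cyp4a14 was highest on control array 3; the part of liver RNA in these dim signals was not tested.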
